A study of Mus musculus with 6 samples.

Results

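The 10 genes described here encode transcription factors of the epithelial to mesenchymal transition (EMT): Zeb1, Zeb2, Snai1, Snai2, Twist1, Twist2, Foxc1, Foxc2, Prrx1 and Tcf4. They were taken as the probe sets annotated to 1 of these symbols alone, 20 probe sets of the 22690 in the table, and are 10 of 12393 genes tested. A gene with several probe sets is represented by the one with the highest mean over the 6 arrays. Messenger RNA was measured in 344SQ, a mouse lung cancer cell line that the labels describe as a metastatic KP line with high Zeb1. The 3 vector arrays hold 344SQ cells with a control vector. The 3 miR-34a arrays hold 344SQ cells in which the microRNA miR-34a was expressed from an inducible construct. The labels disagree on the source: the design text and the miR-34a titles speak of tumours grown from injected cells, the other fields of cultured cells. The macrophage gene C1qa read 10.83 to 12.46 and the endothelial gene Cdh5 9.71 to 10.90 over the 6 arrays (log2). Whether a change arose in 344SQ cells or in other cells was not tested. No label says whether the replicates are separate mice or separate cultures. A p-value here therefore covers only the scatter among these arrays, part or all of which could be technical.

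EMT factors switch off epithelial adhesion genes such as Cdh1 (E-cadherin) and favour a motile, mesenchymal state. ZEB and SNAI proteins are zinc finger repressors that bind short DNA sites called E-boxes. TWIST proteins and TCF4 are basic helix-loop-helix factors that bind E-boxes as pairs, FOXC1 and FOXC2 are forkhead factors, and PRRX1 is a homeodomain factor. Many of these genes are also active in fibroblasts and other stromal cells, so RNA of a tumour can hold their transcripts from both sources. ZEB1 is known to repress the miR-34a gene, and SNAI1 is a published target of miR-34a in other cells.

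miR-34a is shown because it is the agent that separates the groups. A microRNA pairs with target transcripts mainly through its seed, bases 2 to 8, in capitals here. Of 1738 mouse mature microRNAs in the RefSeq table (GRCm38.p6), 4 share that seed and are printed here. The mature miR-34a-5p lies at chr4:150068473-150068494 on the plus strand.
mmu-miR-34a-5p: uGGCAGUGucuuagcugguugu
mmu-miR-34b-5p: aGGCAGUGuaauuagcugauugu
mmu-miR-449a-5p: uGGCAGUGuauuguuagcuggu
mmu-miR-449c-5p: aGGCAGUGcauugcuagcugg
Mature microRNAs were not measured, and seed sites in transcripts were not analysed here.

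Vector 1 stood apart from the other arrays before any gene was considered. The first principal component took 61.0% of the variance and placed it at -43.3, against -5.42 and -8.75 for the other vector arrays and 16.3 to 21.7 for the miR-34a arrays. It was the lowest of the 6 arrays in 7 of the 10 factors, compared with 21.6% of all genes. Its summed intensity over 18 fibroblast genes was 34653, against a highest vector value of 78009 and 73648 to 99463 in the miR-34a arrays. The 13 macrophage genes summed to between 21087 and 31188 in vector and between 32528 and 36863 in miR-34a arrays, the 12 endothelial genes to between 7004 and 11519 and between 9351 and 9468. The 11 pericyte and smooth muscle genes summed to between 5143 and 11023 and between 7636 and 10986. The 12 T and NK cell genes summed to between 5275 and 6791 and between 7992 and 9404. Their brightest gene, Thy1, also stands in the fibroblast list. Thy1 read 9.22 to 10.82 in vector and 11.56 to 11.99 in miR-34a arrays (log2), and the sum was not taken without it. The 10 skeletal muscle genes summed to between 2374 and 2982 and between 2519 and 7146. The epithelial tumour cell genes, 10 in number and led by the keratin genes Krt18, Krt8 and Krt19, summed to between 81402 and 98025 in vector and between 85329 and 90863 in miR-34a arrays. Here vector 1 was the highest of the 6 arrays, at 98025, whereas it was the lowest for the fibroblast, macrophage, endothelial, pericyte and T and NK cell lists. The genes of the epithelial list did not all follow its sum. Krt19 was highest in vector 1, at 14.27 in log2 against 13.51 to 13.66 in the other arrays. Epcam and Cdh1 were lowest there, at 8.33 against 9.92 to 10.53 and at 13.58 against 13.60 to 13.76. None of these markers was at 1, the lowest value on each array, and the lowest marker value was 21.5, in the skeletal muscle list. Fewer cells of a type and less RNA per cell cannot be told apart in such samples. Where vector 1 moved a difference by over 1.5 times, the value without it is also given for the members and for most other genes and lists.

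Twist1 and Twist2 were the members that rose, 2.96-fold and 2.80-fold in miR-34a samples, and no member fell. Zeb1 differed by 0.027 in log2 and did not pass. Zeb2, Snai1 and Tcf4 were higher by 0.73, 0.34 and 0.92 in log2 without passing the test, and the changes of Snai2, Foxc1, Foxc2 and Prrx1 lay between -0.12 and 0.24. A gene passed when its adjusted p was under 0.05 by limma, a linear model fitted over all genes on log2(intensity + 16), with Benjamini-Hochberg adjustment. Signed changes are miR-34a minus vector. By this rule 11.7% of all genes passed, 6.5% as higher and 5.25% as lower. Among the 10 members, 0 passed as lower and 2 as higher. That share of higher genes is above 6.5% but rests on 2 genes alone. At an unadjusted limma p under 0.05 there were 3 members of 10, Twist1, Twist2 and Snai1, against 28.2% of all genes, which is near the same share. The 3 miR-34a values all lay above the 3 vector values in 4 members, Zeb2, Snai1, Twist1 and Twist2, and below them in 0, against 20.8% and 14% of all genes.

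**Figure D1:**
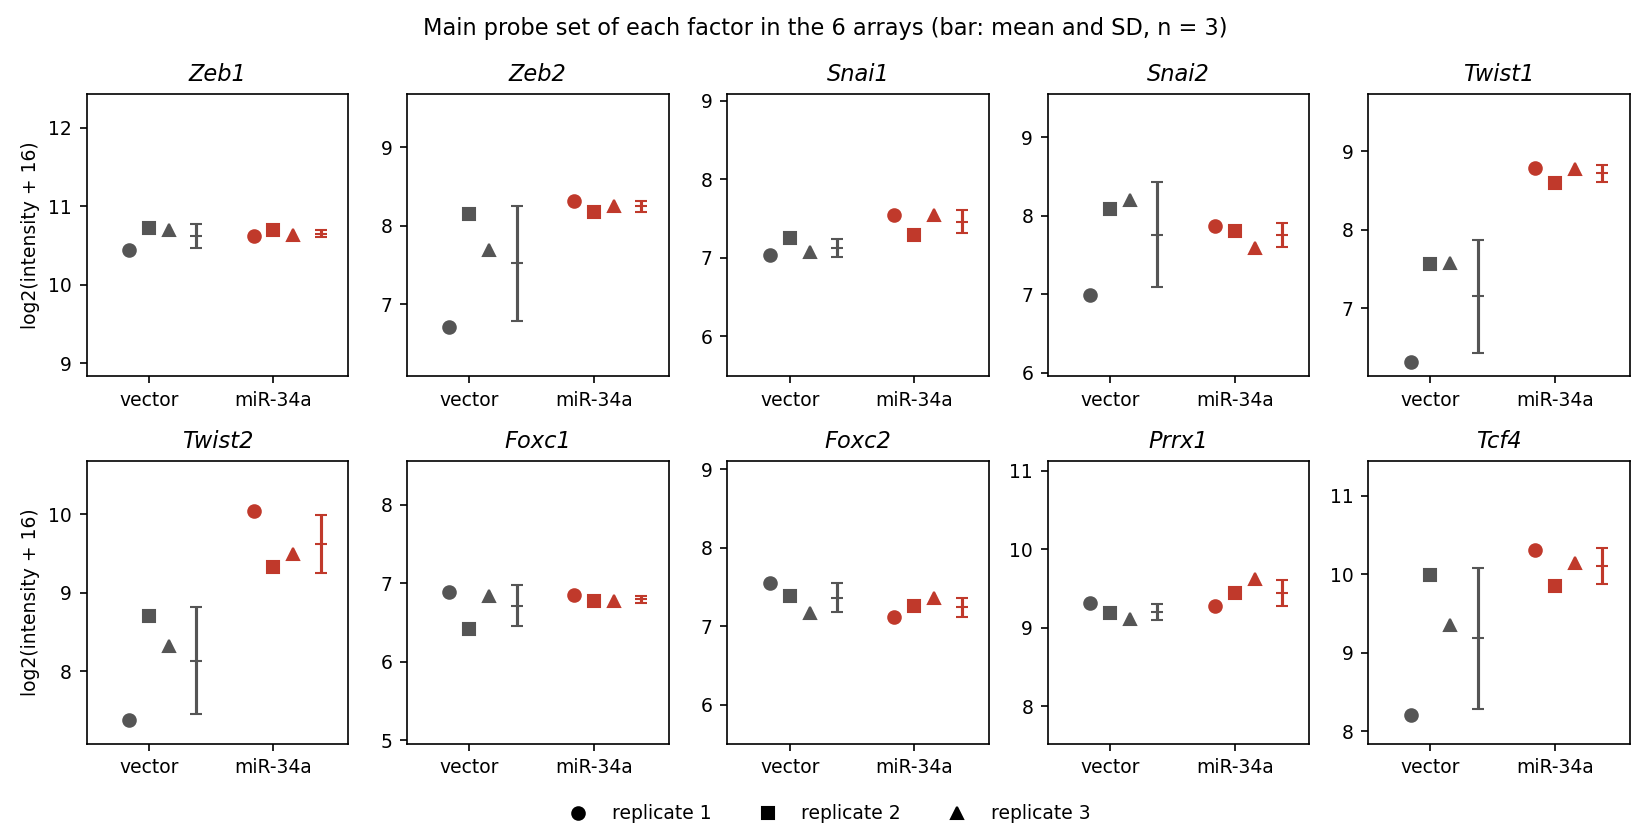
Level of the main probe set of each factor, in log2(intensity + 16), in the 3 vector arrays (grey) and the 3 miR-34a arrays (red). Symbols are replicates and bars are the mean and SD, n = 3; each panel spans the same number of log2 units. Twist1 and Twist2 separate the groups and Zeb1 does not. Vector 1 (grey circle) is the lowest array for Zeb1, Zeb2, Snai1, Snai2, Twist1, Twist2 and Tcf4.

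TWIST1 directs mesoderm and neural crest development and is a classic inducer of EMT and metastasis in experimental tumours. The intensity of Twist1 was 63.8, 172 and 175 in vector 1, 2 and 3 and 425, 369 and 422 in miR-34a 1, 2 and 3. Every miR-34a array was above every vector array, and vector 1 was well below the other vector arrays. The mean was 7.15 ± 0.72 in vector and 8.72 ± 0.11 in miR-34a samples (log2, SD, n = 3), and the change was 1.56 ± 0.323 (SE; 95% interval 0.80 to 2.33; limma adjusted p = 0.0264). Without vector 1 the change was 1.15 (limma adjusted p = 0.00106). The call was lost without miR-34a 1 (adjusted p = 0.103), miR-34a 2 (0.0723) or miR-34a 3 (0.108), with changes between 1.53 and 1.63.

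TWIST2, also called Dermo1, is the close relative of TWIST1 and is prominent in dermal and other connective tissue cells. The intensity of Twist2 was 151, 403 and 303 in the vector arrays and 1035, 630 and 705 in the miR-34a arrays, in replicate order. The groups did not overlap, and miR-34a 1 was the highest array. The mean rose from 8.14 ± 0.68 to 9.62 ± 0.37 (log2, SD, n = 3), so the change was 1.49 ± 0.343 (SE; 95% interval 0.68 to 2.295; limma adjusted p = 0.0364). Without vector 1 the change of Twist2 was 1.11 (limma adjusted p = 0.0116). Its call was lost without vector 3 (adjusted p = 0.0809), miR-34a 1 (0.127), miR-34a 2 (0.0747) or miR-34a 3 (0.116), with changes between 1.28 and 1.63. Each Twist gene had 1 probe set. With a pseudocount of 1 in place of 16 the changes were 1.69 for Twist1 and 1.54 for Twist2, and with 64 they were 1.28 and 1.33.

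The bases upstream of both start sites are printed because these are the members that rose together. Each run is the 250 bases before the RefSeq start (GRCm38.p6), 5′ to 3′ on the strand of the gene. Twist1 lies at chr12:33957421-33957670 and Twist2 at chr1:91801211-91801460, both on the plus strand.
Twist1: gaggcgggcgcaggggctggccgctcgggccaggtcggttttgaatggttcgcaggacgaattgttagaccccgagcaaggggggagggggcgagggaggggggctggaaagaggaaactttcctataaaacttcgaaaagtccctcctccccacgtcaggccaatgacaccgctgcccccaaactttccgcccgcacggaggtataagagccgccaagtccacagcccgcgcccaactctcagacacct
Twist2: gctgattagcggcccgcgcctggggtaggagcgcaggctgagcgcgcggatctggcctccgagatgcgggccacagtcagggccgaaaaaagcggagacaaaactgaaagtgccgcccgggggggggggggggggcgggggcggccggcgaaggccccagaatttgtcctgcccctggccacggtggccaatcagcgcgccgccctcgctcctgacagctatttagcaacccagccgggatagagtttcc
Both are rich in G and C, 66.0% for Twist1 and 64.7% for Twist2 over the 300 bases that reach 50 past the start, against a median of 52.7% over all 32851 promoter windows of that length. Neither holds the E-box letters CACCTG or CAGGTG.

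ZEB1 is the factor for which the cell line is described as high. The intensity of Zeb1 was 1382, 1677 and 1646 in the vector arrays and 1556, 1648 and 1574 in the miR-34a arrays. The miR-34a values lay inside the vector range. The mean was 10.62 ± 0.15 in vector and 10.65 ± 0.044 in miR-34a samples (log2, SD, n = 3), and the difference was 0.027 ± 0.0976 (SE; limma adjusted p = 0.896). The 95% interval of that difference ran from -0.20 to 0.26. The sign changed without vector 1, to -0.061, and with the mean of both probe sets, to -0.073. The other Zeb1 probe set, 1420243_at, read between 116 and 159 and changed by -0.17 (limma over all probe sets, adjusted p = 0.316).

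ZEB2, also called SIP1, shares its DNA site with ZEB1 and is strongly expressed in neural crest derivatives and several immune and stromal cells. The intensity of Zeb2 was 89.3, 269 and 191 in the vector arrays and 303, 272 and 290 in the miR-34a arrays. The groups did not overlap, although vector 2 lay just under miR-34a 2. The mean went from 7.52 ± 0.73 to 8.25 ± 0.074 (log2, SD, n = 3), a difference of 0.73 ± 0.327 (SE; 95% interval -0.04 to 1.496; limma adjusted p = 0.199). Without vector 1 the difference was 0.32 (adjusted p = 0.153).

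SNAI1, known as Snail, is the factor whose transcript is a published target of miR-34a. The intensity of Snai1 was 115, 137 and 119 in the vector arrays and 171, 140 and 171 in the miR-34a arrays. The miR-34a arrays lay above the vector arrays, by little between vector 2 and miR-34a 2. The mean went from 7.12 ± 0.12 to 7.46 ± 0.15 (log2, SD, n = 3), a difference of 0.34 ± 0.107 (SE; 95% interval 0.09 to 0.59), which did not pass after adjustment (limma unadjusted p = 0.0158, adjusted p = 0.0887). It was 0.29 without vector 1 and between 0.29 and 0.42 when any single array was left out. With array weights, by which limma lets arrays count unequally, it passed (0.38; adjusted p = 0.0167), while without vector 1 it did not (adjusted p = 0.119).

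SNAI2, known as Slug, is a neural crest and basal epithelial factor. The intensity of Snai2 was 111, 256 and 279 in the vector arrays and 218, 208 and 176 in the miR-34a arrays. The miR-34a arrays lay between vector 1 and the other vector arrays. The difference over all arrays was -0.0075 ± 0.305 (SE; 95% interval -0.73 to 0.71; limma adjusted p = 0.991). Without vector 1, Snai2 passed as lower, at -0.39 (limma adjusted p = 0.0446). Without vector 2 the difference was 0.16 and without vector 3 it was 0.21, neither of which passed. Without vector 1, 3 of the 10 members passed, Twist1 and Twist2 as higher and Snai2 as lower, among 2133 genes in all.

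**Figure D2:**
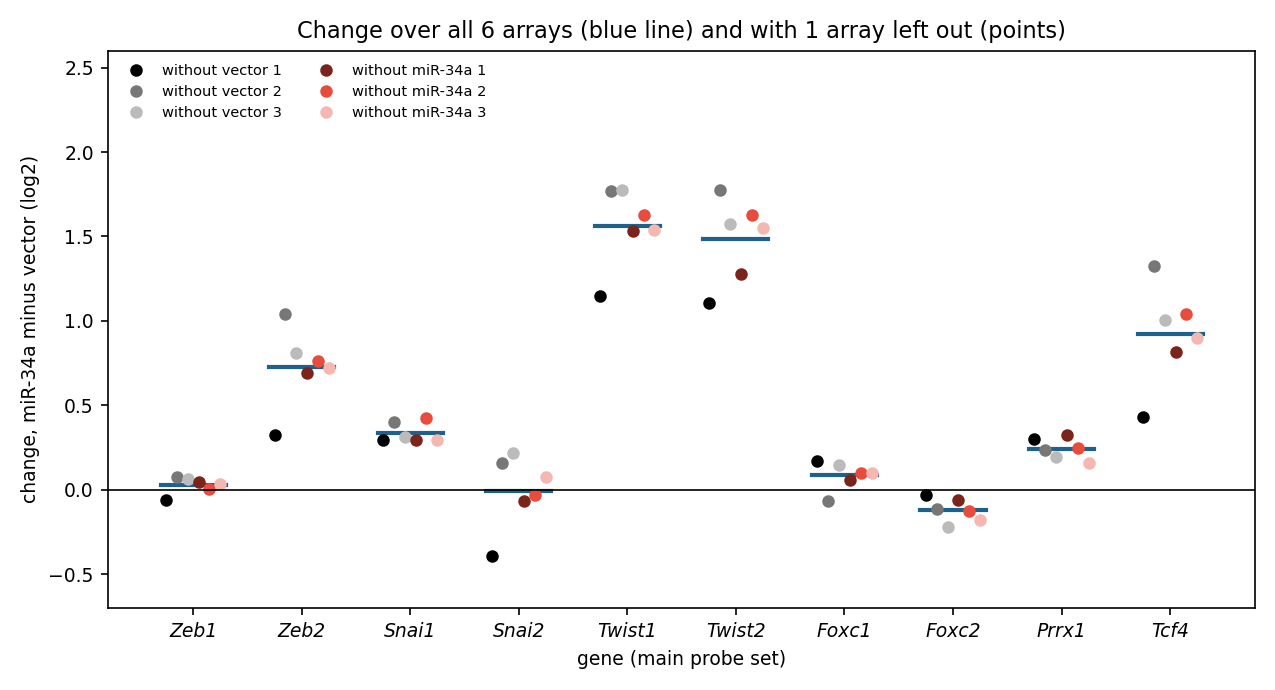
Change of each factor (miR-34a minus vector, log2) over all 6 arrays (blue line) and with a single array left out (points; black is without vector 1). Twist1 and Twist2 stayed above 1 in each fit, Zeb2 and Tcf4 fell to 0.32 and 0.43 without vector 1, and Snai2 went to -0.39.

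TCF4, also called E2-2, is an E protein, the class of helix-loop-helix factors that pair with TWIST proteins. The main Tcf4 probe set, 1434148_at, read 279.9, 999.6 and 637 in the vector arrays and 1253, 910 and 1112 in the miR-34a arrays. Vector 2 lay above miR-34a 2, so the groups overlapped. The mean was 9.18 ± 0.90 in vector and 10.10 ± 0.23 in miR-34a samples (log2, SD, n = 3), a difference of 0.92 ± 0.409 (SE; 95% interval -0.04 to 1.88; limma adjusted p = 0.195). Without vector 1 it was 0.43 (adjusted p = 0.182). With array weights it was 0.74 and passed (adjusted p = 0.0483).

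The 6 probe sets of Tcf4 all differed upward, by between 0.18 and 0.92, and none passed over all probe sets. The closest to the threshold, 1424089_a_at, read 142, 361 and 237 in vector and 491, 391.7 and 474 in miR-34a arrays. Its groups did not overlap, and its difference was 0.92 ± 0.288 (SE; limma adjusted p = 0.0828). Without vector 2 it passed, at 1.22, as did 1416723_at at 0.94 and 1416724_x_at at 1.17. Without vector 1 these 3 differed by 0.60, 0.21 and 0.45, and none of them passed; 1434149_at went from 0.31 to 0.014. The ending _x_at marks probe sets that may also read related transcripts.

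PRRX1 is a mesenchymal homeodomain factor of limb and connective tissue, and its probe sets disagreed. The main probe set, 1432129_a_at, read 619, 567 and 536 in the vector arrays and 605, 678 and 769 in the miR-34a arrays. The groups overlapped, since vector 1 was above miR-34a 1, and the difference was 0.24 ± 0.110 (SE; 95% interval -0.02 to 0.50; limma adjusted p = 0.202). Another probe set, 1425526_a_at, read 91.0, 129 and 139 in vector and 303, 213 and 249 in miR-34a arrays, with no overlap. It was higher by 1.00 ± 0.176 (SE; 95% interval 0.59 to 1.41; limma over all probe sets, adjusted p = 0.0145), and by 0.84 without vector 1 (adjusted p = 0.00806). Its call was lost without miR-34a 1 (adjusted p = 0.0618) or miR-34a 3 (0.0674). The probe set 1425528_at differed by 0.72 (adjusted p = 0.186), and by 0.35 without vector 1, and 1425527_at by -0.0019, with values from 228 to 272 in all arrays. Which Prrx1 transcripts each probe set reads was not analysed here. Of the 20 probe sets of the members, 3 passed as higher, those of Twist1 and Twist2 and 1425526_a_at, where 6.05% of all probe sets passed as higher.

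**Figure D3:**
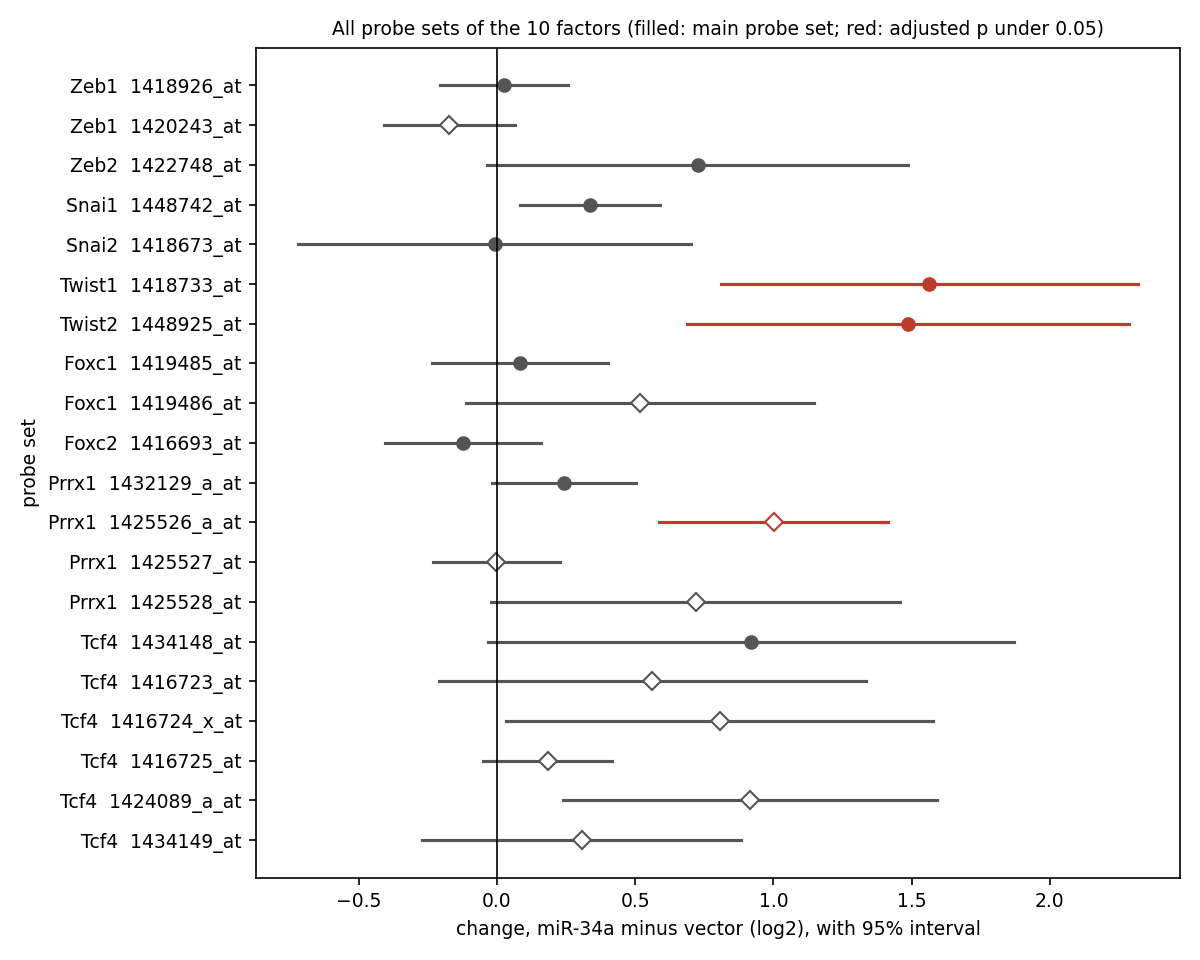
Change (miR-34a minus vector, log2) with its 95% interval for each of the 20 probe sets of the 10 factors. Filled points are the main probe sets, and red marks an adjusted p under 0.05 over all probe sets. The 4 probe sets of Prrx1 run from about 0 to 1.00 and the 6 of Tcf4 from 0.18 to 0.92.

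FOXC1 and FOXC2 act in vessel, eye and kidney development and have been linked to EMT in breast tumours. The main Foxc1 probe set read between 69.1 and 103 over the 6 arrays and Foxc2 between 123 and 171, each with overlapping groups. Their differences were 0.08 ± 0.135 for Foxc1 (SE; 95% interval -0.23 to 0.40; limma adjusted p = 0.740) and -0.12 ± 0.120 for Foxc2 (SE; 95% interval -0.40 to 0.16; adjusted p = 0.558). The other Foxc1 probe set, 1419486_at, read 29.95 in vector 1 and 68.2 to 106 in the remaining arrays, and differed by 0.52 (adjusted p = 0.259). Without vector 1 its difference was 0.20, that of the main Foxc1 probe set 0.17 and that of Foxc2 -0.031. No detection calls were used, so values this low were not told apart from background.

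The members that were low in vector 1 were low together with the fibroblast markers. The log2 level in vector 1 minus the mean of the other vector arrays was -1.25 for Twist1, -1.13 for Twist2, -1.21 for Zeb2, -1.16 for Snai2 and -1.46 for Tcf4. Zeb1 and Snai1 were also lowest in vector 1, by less, at -0.26 and -0.13. The mean of the 18 fibroblast genes was 10.06, 11.34 and 11.13 in vector and 11.74, 11.23 and 11.68 in miR-34a arrays, higher by 0.71 in miR-34a samples (exact permutation test over arrays, two-sided, p = 0.2). Of these genes 4 passed as higher, the collagen genes Col6a1 and Col6a2, the procollagen processing gene Pcolce and the surface glycoprotein gene Thy1, and 0 as lower. The brightest, the matrix genes Col1a2, Fbln2 and Col3a1, did not pass, with differences of 0.92, 0.36 and 0.54. Without vector 1 these were 0.36, 0.20 and -0.089, so the direction of Col3a1 turned. The call of Thy1 was lost without vector 3 or any single miR-34a array. The median change of the fibroblast list was 0.72, and 0.25 without vector 1.

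Set against the mean of the fibroblast list, the Twist genes and the other members parted. Genes of that list also differed among themselves: Thy1 changed by 1.73, more than either Twist gene, and Fbln2 by 0.36. The log2 level of Twist1 minus the mean of the list was -3.74, -3.78 and -3.55 in the vector arrays and -2.95, -2.64 and -2.90 in the miR-34a arrays. That of Twist2 was -2.68, -2.63 and -2.81 in vector and -1.702, -1.89 and -2.18 in miR-34a arrays. By this measure vector 1 no longer stood apart, the groups did not overlap, and miR-34a samples were higher by 0.86 for Twist1 and 0.78 for Twist2 (exact permutation test over arrays, two-sided, p = 0.1 for each, the smallest that 3 against 3 allows). The difference so taken was 0.02 for Zeb2 (exact p = 0.8) and 0.21 for Tcf4 (exact p = 0.4), with overlapping groups in both. For the remaining members it was below 0: -0.83 for Foxc2 and -0.71 for Snai2 (exact p = 0.1 for each), -0.68 for Zeb1 (0.2), -0.62 for Foxc1 (0.4), -0.46 for Prrx1 (0.5) and -0.37 for Snai1 (0.5). The list mean itself was higher by 0.71, so a gene whose own level differed little, such as Zeb1, lies lower by about that amount on this scale. Without vector 1 the list mean was higher by 0.31, and the differences from it were 0.83 for Twist1, 0.79 for Twist2, -0.71 for Snai2, -0.37 for Zeb1, -0.35 for Foxc2, -0.14 for Foxc1, 0.12 for Tcf4 and between -0.019 and 0.0099 for Snai1, Prrx1 and Zeb2. The fibroblast list was chosen as the yardstick after the values were seen, and the part of fibroblast RNA in any of these differences was not tested beyond these values. The macrophage markers mostly moved the same way, with 3 of 13 higher, 1 lower and a median of 0.54, which was 0.33 without vector 1. The lower gene was Mrc1, at -0.99 (limma adjusted p = 0.00264), the smallest adjusted p among the macrophage genes that passed. The endothelial markers had 0 of 12 past the threshold (2 at an unadjusted limma p under 0.05) and a median of 0.09, which was -0.048 without vector 1.

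**Figure D4:**
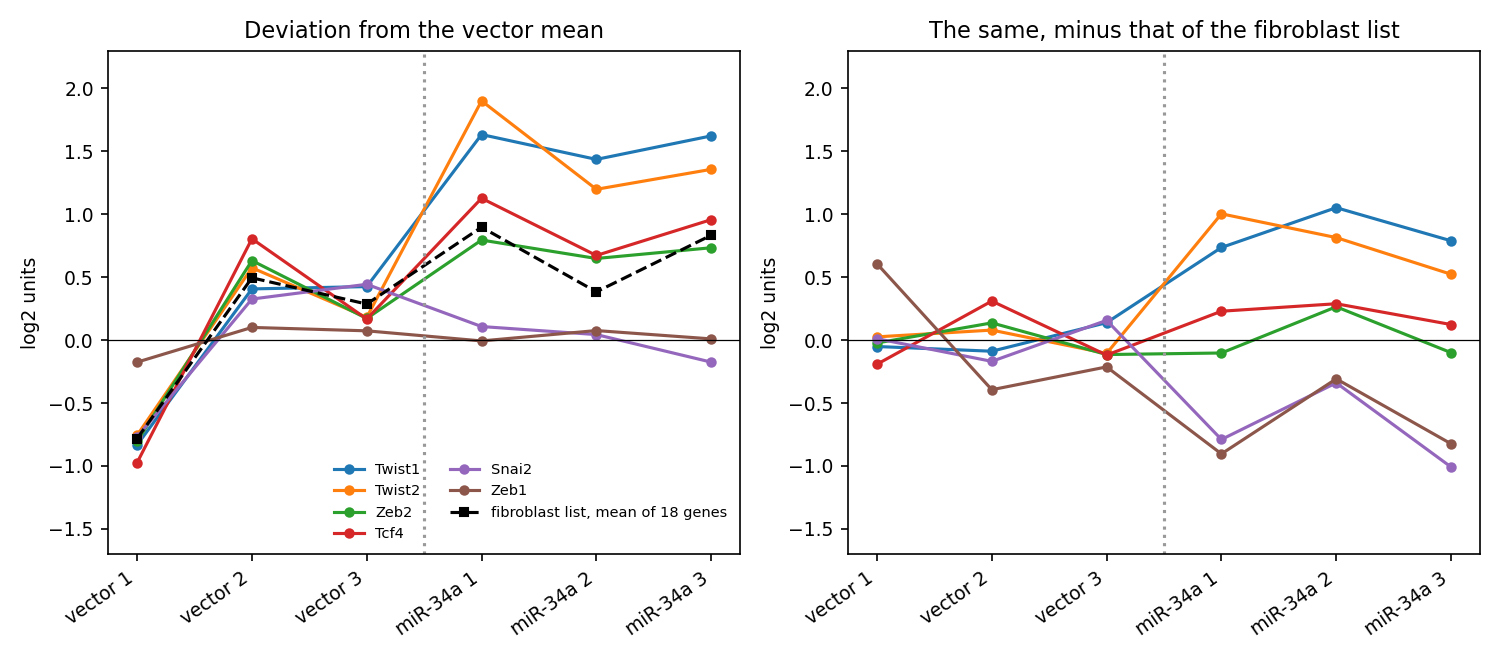
Left, log2 deviation of 6 factors and of the mean of 18 fibroblast genes (dashed) from the mean of the vector arrays, in each array. Right, the same after subtracting the fibroblast mean of that array; Twist1 and Twist2 lie above the vector arrays in all 3 miR-34a arrays, Zeb2 and Tcf4 overlap with them, and Snai2 lies below.

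The genes with profiles most like those of the members were taken by the root mean square (RMS) difference over the 6 arrays between log2 values centred on the mean of each gene, as a description. Closest to Twist1 were Slc7a2 at an RMS difference of 0.0998, Cd302 at 0.132 and Ccdc80 at 0.143, and closest to Twist2 were Klhdc8a at 0.0817, Fbln5 at 0.165 and Mmp11 at 0.208. Closest to Zeb2 were Enc1 at 0.0480, Tgfbi at 0.0640 and Thra at 0.0783. Closest to Tcf4 were Fam43a at 0.116, Dcn at 0.117 and Mmp2 at 0.122, of which Dcn stands in the fibroblast list. Closest to Snai2 were Ccdc71l at 0.0867, Arid4b at 0.103 and Rasa1 at 0.107. The profile of Zeb1 was nearly level, and Phtf1, Syt9 and Rtn4 came closest to it, at RMS differences of 0.0241 to 0.0265.

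Partners and inhibitors of the TWIST proteins were examined next, since E proteins pair with TWIST and ID proteins take E proteins away. Of 14 genes, which include Twist1 and Tcf4 themselves, 2 passed as higher and 0 as lower, with a median change of -0.026 against 0.024 over all genes; without vector 1 these medians were 0.028 and 0.051. Beside Twist1, the member that passed was Scx, the tendon factor scleraxis, at 0.94 ± 0.240 (SE; limma adjusted p = 0.0480), and at 0.65 without vector 1. Its call was lost without vector 3 (adjusted p = 0.0885), miR-34a 1 (0.142), miR-34a 2 (0.130) or miR-34a 3 (0.148), so it held in the absence of vector 1 or vector 2 only. The E protein genes Tcf3 and Tcf12 differed by 0.24 and -0.22, with adjusted p of 0.336 and 0.358 by limma, and neither passed; Tcf3 was at 0.11 without vector 1. The inhibitor genes Id1, Id2, Id3 and Id4 differed by -0.23, -0.10, -0.05 and 0.00, and none passed. The third SNAI gene, Snai3, differed by -0.09 (limma adjusted p = 0.677).

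Corepressors and factors that set the stability of the SNAI and ZEB proteins moved in both directions. Of 37 measured genes, 5 were higher and 5 lower, with a median of -0.028, and -0.059 without vector 1. The Polycomb methyltransferase gene Ezh2 fell by 0.74 (-0.735 ± 0.122) and the deacetylase gene Hdac2 by 0.78 (-0.776 ± 0.134), with limma adjusted p of 0.0146 and 0.0165. Rbbp7, for a histone-binding subunit of deacetylase complexes, changed by -0.41. The gene of GSK3B, a kinase that marks SNAI1 protein for degradation, rose by 0.59 ± 0.107 (Gsk3b; SE; limma adjusted p = 0.0186). The genes of the CTBP corepressors that bind ZEB proteins, Ctbp1 and Ctbp2, differed by 0.20 and -0.16 and did not pass. With limma, none of the 37 genes passed once miR-34a 1 or miR-34a 3 was left out. Leaving out vector 3 gave 1 and leaving out miR-34a 2 gave 4. Over all genes, leaving out each array in turn gave 226 to 2133 past the threshold, against 1456 with all 6 arrays. The counts of the lists below stand beside the same totals.

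Signals that are known to induce EMT factors also moved both ways, with 4 of 47 measured genes higher, 4 lower and a median of 0.024, and 0.0014 without vector 1. The TGF-beta transducer gene Smad3 fell by 0.71 (-0.713 ± 0.1004; limma adjusted p = 0.00931), and its 2 probe sets ran from -0.71 to -0.26. Rela, for a subunit of NF-kappa B, rose by 0.49 and the transcription factor gene Stat3 by 0.62. Igf1, for a growth factor, rose by 2.15, while its 3 probe sets ran from 0.56 to 2.15 and the 3 of Stat3 from 0.21 to 1.01. The rest that passed, named after their values were seen, were Tgfb3 at 0.96, Hif1a at -0.38, the cytokine gene Il6 at -1.32 and the receptor kinase gene Met at -1.05. The limma count of genes past the threshold in this list was 13 without vector 1, among 2133 of all genes. Leaving out miR-34a 2 gave 3, vector 3 or miR-34a 3 gave 1, and miR-34a 1 gave 0.

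Epithelial genes, the usual targets of these repressors, were mostly level. Of 54 measured genes 4 were higher and 1 lower, with a median of 0.017, and 0.093 without vector 1. The lowest changes in the list, Elf3 at -1.20 and Tjp3 at -1.05, did not pass. Cdh1 differed by 0.08 ± 0.0798 (SE; limma adjusted p = 0.584; 0.049 without vector 1), from 13.64 to 13.71 in log2. The tight junction gene Ocln rose by 1.98 ± 0.145, the matriptase inhibitor gene Spint1 by 1.37 ± 0.159 and the membrane traffic gene Mal2 by 1.57 ± 0.233 (SE; limma adjusted p = 0.00201, 0.00615 and 0.0107). The tight junction scaffold gene Tjp1 changed by -0.44, a call that held without vector 1 but not without any other single array, and the fifth gene past the threshold was Marveld2 at 0.49. Without vector 1 the changes of Ocln, Spint1 and Mal2 were 1.86, 1.26 and 1.39. The splicing factor gene Esrp1 and the transcription factor genes Ovol1, Ovol2 and Grhl2, which oppose EMT, differed by 0.11, -0.42, -0.035 and 0.11. None passed, and without vector 1 Esrp1 was at 0.071 and Ovol2 at 0.034. The 2 probe sets of Ovol1 ran from -0.42 to 0.14. Its main probe set had groups that did not overlap (limma adjusted p = 0.0541) and passed without vector 2 (adjusted p = 0.0267). The adhesion gene Epcam differed by 0.42, and by -0.21 without vector 1. With miR-34a 1 or miR-34a 3 left out 2 epithelial genes passed, and with miR-34a 2 or vector 3 left out 3 did.

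Promoter letters were compared because ZEB and SNAI proteins bind the E-box CACCTG, whose other strand reads CAGGTG; a search for both strings covers both strands, and a match is not evidence of binding. The RefSeq windows run from 250 bases before to 50 after the start. Of 36 epithelial genes with a window, 24 (66.7%) held a match, against 22.6% of all 27025 genes with a window. Of the 6 members with an entry, Twist1, Twist2, Zeb2, Snai1, Prrx1 and Foxc1, 1 held a match, Snai1; Zeb1, Snai2, Foxc2 and Tcf4 had no entry. Of 23 measured epithelial genes with a match 2 were higher and 0 lower, with a median change of 0.01, and of 11 without a match 1 was higher and 1 lower, with a median of 0.02.

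The upstream bases of Snai1, the member with a match, and of Ocln, the epithelial gene with the smallest p, are printed with the E-box letters in capitals. Snai1 lies at chr2:167537945-167538194 on the plus strand and Ocln at chr13:100552499-100552748 on the minus strand (GRCm38.p6, RefSeq), each as the 250 bases before the start; for Ocln the window with more matches of 2 was taken.
Snai1: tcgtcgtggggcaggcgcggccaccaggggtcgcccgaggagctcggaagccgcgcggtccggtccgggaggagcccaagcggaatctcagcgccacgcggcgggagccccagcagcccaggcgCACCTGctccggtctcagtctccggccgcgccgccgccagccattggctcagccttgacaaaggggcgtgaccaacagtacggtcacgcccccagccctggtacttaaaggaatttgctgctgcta
Ocln: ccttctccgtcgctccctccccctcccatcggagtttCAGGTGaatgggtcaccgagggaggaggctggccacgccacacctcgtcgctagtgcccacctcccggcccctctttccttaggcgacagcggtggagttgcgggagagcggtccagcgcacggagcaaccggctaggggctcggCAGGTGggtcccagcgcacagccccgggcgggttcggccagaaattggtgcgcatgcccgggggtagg
Snai1 holds 1 match in these bases and Ocln 2.

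Mesenchymal genes, which EMT factors are known to favour, had a median change of 0.50 over 42 measured genes, and 0.11 without vector 1. Of these 2 were higher and 1 lower: Col6a1 at 0.70, Thy1 at 1.73, and S100a4, a calcium-binding protein gene also called Fsp1, at -0.95 ± 0.147 (SE; limma adjusted p = 0.0119). The intermediate filament gene Vim differed by 0.092 and the matrix gene Fn1 by 0.68, and neither passed. Without vector 1 Vim was at 0.043 and Fn1 at 0.30 (limma adjusted p = 0.0642). The N-cadherin gene Cdh2 was 6.29 in vector 1, 10.00 and 9.95 in the other vector arrays and 10.42 to 11.02 in the miR-34a arrays (log2), a difference of 2.00 ± 0.935 (SE; limma adjusted p = 0.216). Without vector 1, Cdh2 passed at 0.77 (limma adjusted p = 0.0167), and 8 genes of the list passed, among 2133 of all genes. The protease gene Mmp9 differed by -0.61 (limma adjusted p = 0.0748) and passed without vector 1 at -0.76; its other probe set was at -1.57. The list held 1 gene past the threshold without miR-34a 1 and 0 without miR-34a 3. Many of these genes also stand in the fibroblast list, whose values are given above.

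**Figure D5:**
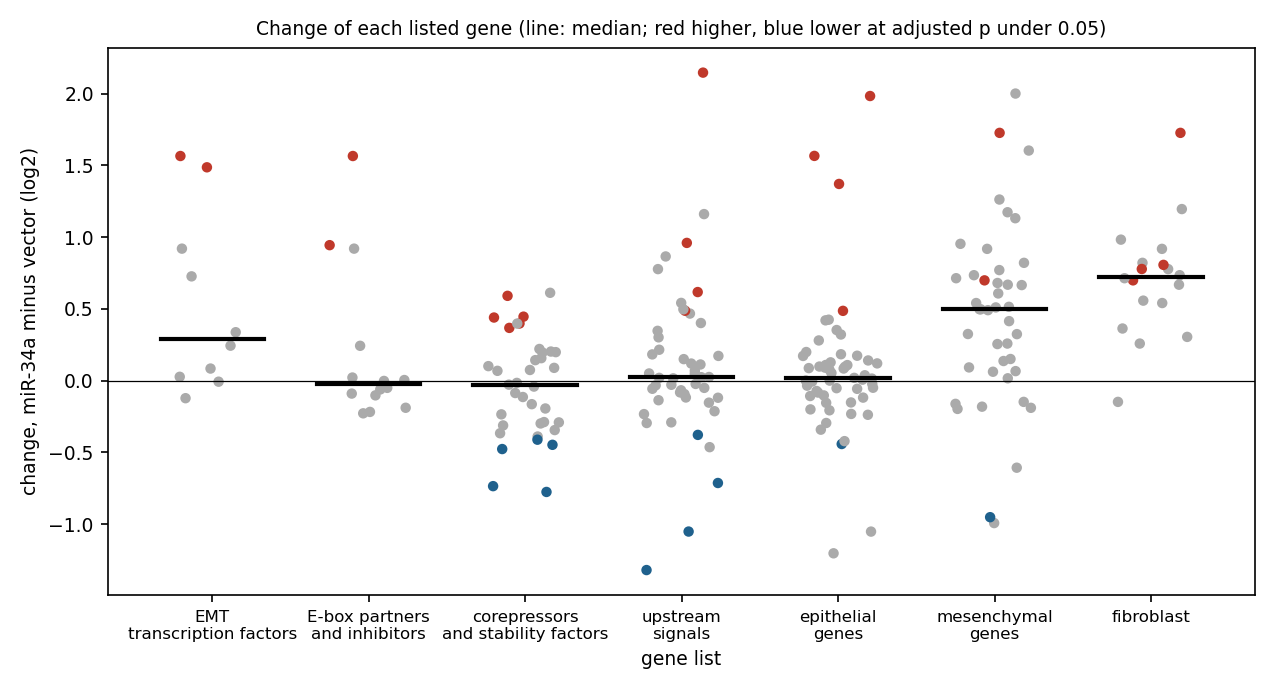
Change (miR-34a minus vector, log2) of each gene of the 10 factors, of 5 lists around them and of the fibroblast list; lines are medians, red and blue points passed as higher and lower. The medians of the mesenchymal and fibroblast lists lie at 0.50 and 0.72, and those of the epithelial, corepressor, signal and E-box partner lists near 0.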

How the data were processed

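The authors' deposited table holds 1 linear intensity per probe set and array; biotin-labelled total RNA was hybridised, per the labels. How the authors summarised and scaled these intensities is not stated in the labels or headers. Array medians ran from 466.7 to 484.2, and no further scaling was applied. Symbols are those of the platform table, brought up to date by Entrez number against RefSeq (GRCm38.p6). Of 22690 probe sets, 20393 carried 1 symbol, 691 several and 1606 were not listed; 64 were controls.

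From the deposited intensities log2(value + 16) was taken, which understates changes of low genes. limma 3.58.1 (R 4.3.3; lmFit, then eBayes; two-sided) was fitted to 12393 genes and separately to 22626 probe sets, and was tested on simulated data with known changes. Precision is limited by having 3 arrays in each group.

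The members and lists were chosen with earlier results of these data known. Named genes are the members, the 4 smallest p-values in each of 5 lists around the factors, a fixed set (Cdh1, Epcam, Ocln, Esrp1, Ovol1, Ovol2, Grhl2, Vim, Cdh2, Fn1), the 3 brightest genes of a marker list, and the profiles closest to Zeb1 and to members spanning at least 1 in log2. Tcf12, the Id genes, Snai3, the Ctbp genes, Elf3, Tjp3 and further genes past the threshold were named after their values were seen. The yardstick of fibroblast genes, its repeat without vector 1 and the split by E-box were also chosen then. Figures were drawn with matplotlib 3.10.9. The alternatives are given in the closing section.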

Additional observations from a re-analysis of the deposited data

How the results depend on the processing

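Over 16 alternatives Twist1 and Twist2 kept their direction wherever they were tested, with changes from 1.15 to 1.78 and from 1.11 to 1.77, and each passed in 10 of them; leaving out the lower 30% of genes by level removed Zeb2, Snai1, Snai2, Twist1, Foxc1 and Foxc2, which have no value there. In what follows counts are genes past the threshold, 1456 of all genes, 2 members, 2 E-box partners, 10 corepressors, 8 upstream signals, 5 epithelial and 3 mesenchymal genes as reported. With array weights they were 3238, 4, 4, 18, 15, 13 and 8. An adjusted p under 0.1 gave 2422 genes, 16 corepressors and 5 mesenchymal genes; the mean of all probe sets gave 13 upstream signals and 5 mesenchymal genes. Without the lower 30% there were 1 member and 0 E-box partners, with a pseudocount of 1 or quantile normalization 1 E-box partner, and with a robust variance trend 0 members and 0 E-box partners (Twist1 adjusted p = 0.0558, Twist2 0.0762). Leaving out each array in turn gave 226 to 2133 genes, 0 to 3 members, 0 to 3 E-box partners, 0 to 12 corepressors, 0 to 13 upstream signals, 2 to 7 epithelial and 0 to 8 mesenchymal genes.

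Replicate numbers are shared by the groups. Same-numbered arrays did not deviate together from their group means (correlations -0.168, -0.0935 and -0.0812). With 3 arrays in each group such correlations cannot show whether the numbers pair the samples. With the replicate number as a block 522 genes, 0 members, 0 E-box partners, 3 corepressors, 1 upstream signal and 3 epithelial genes passed. In that fit the limma adjusted p was 0.0518 for Twist1 and 0.0878 for Twist2.

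Direction turned for small differences that did not pass: Snai2 with a pseudocount of 1 (0.00084), Zeb1 (-0.073) and Zap70 (0.031) with the mean of probe sets, and Zeb1 (-0.043), Foxc2 (0.014), Epcam (-0.26), Ovol2 (0.053) and Zap70 (0.032) with array weights. Leaving out each array gave ranges across 0 for Zeb1 (-0.061 to 0.077), Snai2 (-0.39 to 0.21), Foxc1 (-0.068 to 0.17), Epcam (-0.21 to 0.89), Ovol2 (-0.084 to 0.034), Col3a1 (-0.089 to 0.93), Flt1 (-0.16 to 0.75), Cdh5 (-0.34 to 0.26), Zap70 (-0.090 to 0.024) and probe set 1425527_at of Prrx1 (-0.058 to 0.059). The cause was not tested. No detection calls were used, so signal over background limits the low members.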
